A study of Mus musculus with 26 samples.

Results

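The transglutaminase genes Tgm2, F13a1, Tgm1 and Tgm3 were followed through 24 RNA libraries of transformed mouse myeloid progenitors and 2 histone ChIP libraries of mouse bone marrow. The members are the rows of the count table that map by Ensembl ID to those 4 symbols, 4 of 48795 genes, and they were chosen by measured values, namely that the loss of LSD1 and all-trans retinoic acid (ATRA) went with opposite differences among family members. The knockout and ATRA values of the members are therefore given as a description, with no test. The cells were progenitors of C57BL/6 mice transformed with MN1, or with Hoxa9 and Meis1 together (H9M), 2 models of acute myeloid leukaemia. In each model there were LSD1 knockout (KO) cells with 1 µM ATRA, KO cells without ATRA, control (CTL) cells with 1 µM ATRA and CTL cells without ATRA, with 3 libraries in each of the 8 groups. The strain field reads CreERT2-;LSD1TM1Schuele for all of them, KO cells included. The knockout was induced by 0.1 µM 4-hydroxytamoxifen (4-OHT) for 72 h, and all cells grew in DMEM with fetal calf serum, mouse IL3, human IL6 and mouse SCF. The labels do not say whether CTL cells received 4-OHT, so effects of 4-OHT or of Cre and of LSD1 loss cannot be told apart. They give neither the length of the ATRA treatment nor whether the libraries of a group were separate cultures, so a p-value here measures only the spread between these libraries. The ChIP libraries measured H3K4me2, dimethylated lysine 4 of histone H3, which is found at promoters and enhancers, in untreated lineage-negative bone marrow cells of C57BL/6 mice, with 1 GFI-KD and 1 GFI1-WT library. The labels do not say how the GFI-KD mice were made.

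Transglutaminases crosslink proteins by joining a glutamine of one to a lysine of another, in a reaction that needs calcium. Tgm2, tissue transglutaminase, also binds GTP as a signalling protein and works outside the cell with fibronectin and integrins, and it is a known target gene of retinoic acid in myeloid cells. F13a1 encodes the catalytic A subunit of coagulation factor XIII, which crosslinks fibrin and is made by monocytes, macrophages and megakaryocytes. Tgm1 and Tgm3 are best known for building the cornified envelope of the skin. LSD1, the product of Kdm1a, is a histone demethylase that removes methyl groups from H3K4, and the repressors GFI1 and GFI1B recruit it to their target genes.

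The promoter windows of F13a1 and Tgm1 are shown because their H3K4me2 signal differed most, among the members, between the ChIP libraries. Each is the 250 bases before an annotated RefSeq start, read 5′ to 3′ on the gene's strand, in build GRCm38.p6. F13a1 has 2 annotated starts, with windows at chr13:37050245-37050494 and chr13:37049214-37049463 on the minus strand, and the second window lies within the gene. The first start of Tgm1 has its window at chr14:55713493-55713742, also on the minus strand. Capitals mark matches, on either strand, to the GFI1 core AATC, the retinoid half-site AGGTCA, which reads TGACCT on the opposite strand, and the PU box GAGGAA.
F13a1 start 1: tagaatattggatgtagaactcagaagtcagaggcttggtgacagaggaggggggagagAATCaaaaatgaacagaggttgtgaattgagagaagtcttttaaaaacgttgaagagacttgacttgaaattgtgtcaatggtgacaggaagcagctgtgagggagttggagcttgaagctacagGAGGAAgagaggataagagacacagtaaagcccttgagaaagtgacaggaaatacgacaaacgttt
F13a1 start 2: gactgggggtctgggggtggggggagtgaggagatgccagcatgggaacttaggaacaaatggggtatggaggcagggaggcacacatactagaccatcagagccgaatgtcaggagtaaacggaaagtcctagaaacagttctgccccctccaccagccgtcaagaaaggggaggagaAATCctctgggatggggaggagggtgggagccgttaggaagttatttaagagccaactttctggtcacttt
Tgm1 start 1: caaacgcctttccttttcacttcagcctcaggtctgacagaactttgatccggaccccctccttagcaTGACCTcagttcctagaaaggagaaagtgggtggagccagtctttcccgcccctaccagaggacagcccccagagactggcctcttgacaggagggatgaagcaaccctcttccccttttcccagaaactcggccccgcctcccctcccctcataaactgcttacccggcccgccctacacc
The F13a1 window before start 1 held 1 AATC and 1 GAGGAA, the window before start 2 held 1 AATC, and the Tgm1 window before start 1 held 1 TGACCT. Tgm1 has a second annotated start, whose window is not printed and held none of these matches. Among 32851 annotated starts, 69.0% of such windows held AATC or its complement, 14.0% held AGGTCA or its complement and 23.3% held GAGGAA or its complement. No match overlapped another. A match in a window is a description of its letters and does not show that a factor binds there.

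Values are counts per 1000000 counts of the library total (CPM), so that levels of 1 gene can be set against each other across libraries but not levels of different genes, since transcript lengths were not used. Totals ranged from 22402558 to 32674685 counts per library. In bulk RNA, fewer cells of a type and less RNA per cell cannot be told apart. Kdm1a was checked first. MN1 KO libraries with ATRA had 1.85 to 2.36 CPM, 1.09% of the MN1 CTL level with ATRA. Without ATRA the MN1 KO level was 0.748% of the MN1 CTL level. H9M KO libraries without ATRA had 0.94 to 1.00 CPM, 0.693% of the H9M CTL level. H9M KO libraries with ATRA had 10.3 to 11.5 CPM, 7.51% of the H9M CTL level with ATRA, so H9M KO cells held more Kdm1a RNA with ATRA than without it. All 12 myeloid progenitor identity genes were detected in each of the 8 groups. Of 10 keratinocyte genes, the skin keratins and desmosome genes Krt5, Krt14, Dsg1a, Dsg3 and Dsc3 had no counts in any library. The list still summed to 26.7 to 27.9 CPM in MN1 KO with ATRA, 29.3 to 31.5 CPM in MN1 KO, 10.4 to 11.5 CPM in MN1 CTL with ATRA and 7.30 to 8.19 CPM in MN1 CTL libraries, and to under 3 CPM in each H9M library. Most of the MN1 sum was the epithelial adhesion genes Cdh1 and Epcam. Of 12 stromal and endothelial genes, Cdh5, Col3a1, Dcn and Lum had no counts in any library, and the list summed to 408 to 909 CPM, nearly all of it Pecam1, which myeloid cells also express.

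All 4 genes passed the filter on low counts and are among the 14663 genes tested. Tgm2 (ENSMUSG00000037820.15, GRCm38 chromosome 2, 158116405 to 158146392) had by far the widest range of the members across the 8 groups, 268-fold between the highest and the lowest group mean. F13a1 (ENSMUSG00000039109.15, chromosome 13, 36867178 to 37050244) spanned 9.42-fold. Tgm3 (ENSMUSG00000027401.9, chromosome 2, 129987794 to 130050399) spanned 13.5-fold and Tgm1 (ENSMUSG00000022218.15, chromosome 14, 55700009 to 55713921) spanned 2.70-fold. The annotation places no other gene over Tgm1 or Tgm2. The noncoding genes Gm30489 and Gm30240 overlap F13a1, and Gm52561 and Mir6339 overlap Tgm3. Only Mir6339 of those 4 is a row of the count table, with no counts, and the strand counted is not given, so reads of an overlapping transcript could be counted in F13a1 or Tgm3.

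**Figure D1:**
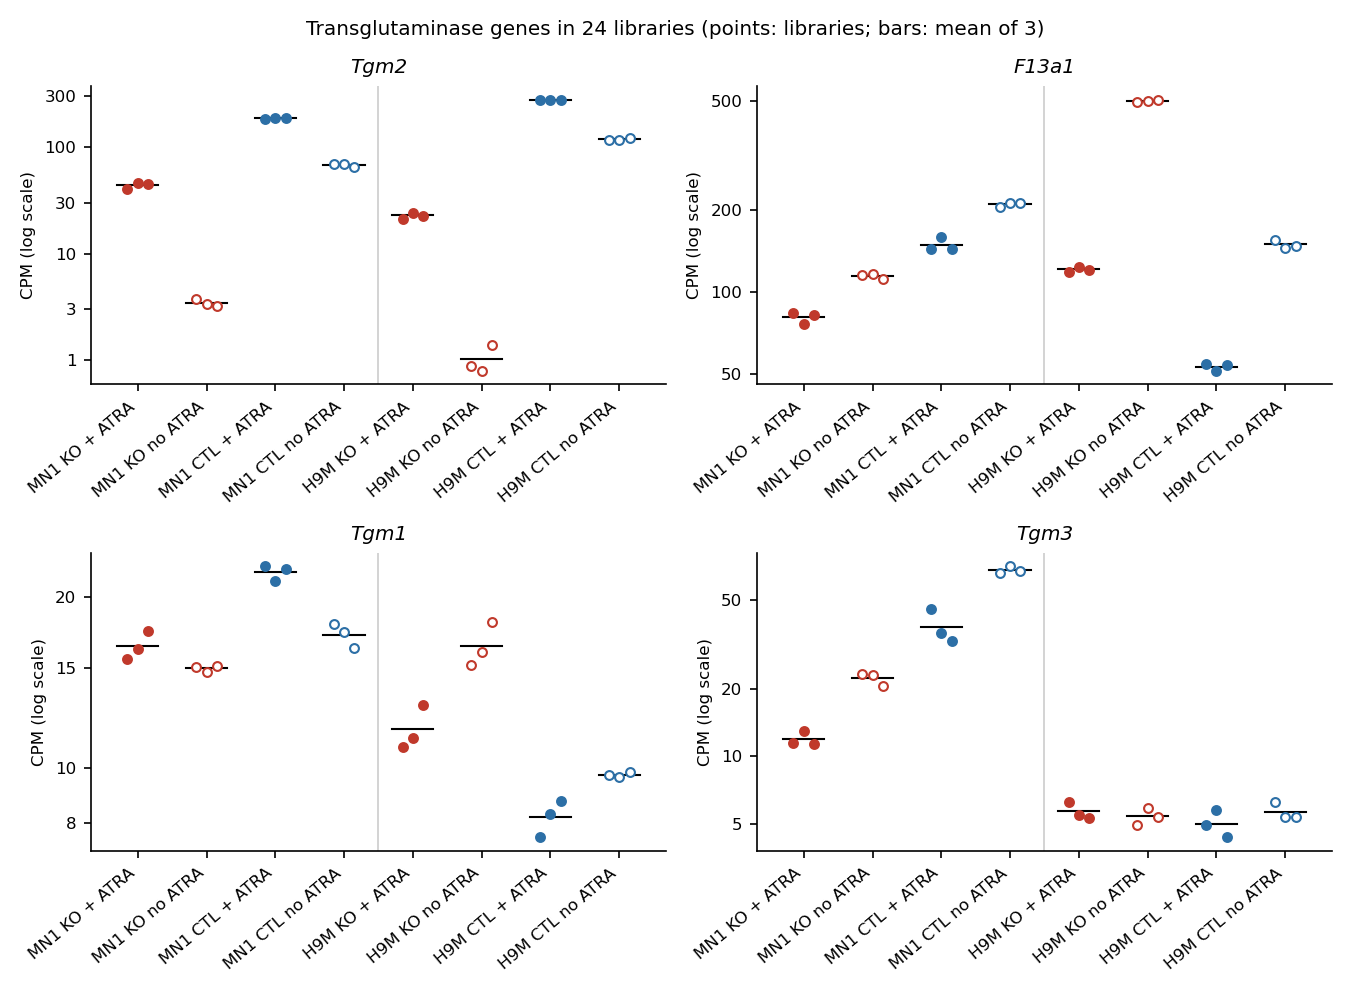
CPM (log axis) of the 4 transglutaminase genes in each library, by group, with MN1 groups left and H9M groups right of the grey line. Red marks KO and blue CTL, filled points carry ATRA and open points do not, and black bars are the mean of 3 libraries. Tgm2 was lowest in both KO groups without ATRA, while F13a1 was highest in H9M KO cells without ATRA.

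As counted, Tgm2 was low in KO cells of both models and higher with ATRA in every setting. After removal of residual Kdm1a, described after the order of the levels, H9M KO libraries with and without ATRA overlapped. In MN1 cells without ATRA it had 3.74, 3.37 and 3.20 CPM in KO libraries, against 68.8, 68.4 and 65.2 CPM in CTL libraries. In H9M cells without ATRA it had 0.89, 0.80 and 1.39 CPM in KO libraries, from 20, 20 and 38 counts, against 116, 117 and 120 CPM in CTL libraries. The KO and CTL libraries were far apart in both models. The log2 fold change of KO over CTL was -4.30 ± 0.0749 (SE) in MN1 cells, 19.7-fold lower, and -6.80 ± 0.089 in H9M cells, 111-fold lower (-8.88 once residual Kdm1a was removed). The -8.88 rests on only 2, 0 and 16 counts left in the H9M KO libraries. Each SE is the log2 fold change divided by the square root of its F statistic in the fit. For Tgm2 in these H9M cells it is narrower than the range with 1 library left out, -7.095 to -6.637.

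With ATRA the Tgm2 levels of KO and CTL cells lay closer together but did not meet. MN1 KO libraries had 40.1, 45.9 and 45.2 CPM, against 183, 188 and 185 CPM in MN1 CTL libraries, 4.29-fold lower (log2 fold change -2.10 ± 0.0485). H9M KO libraries had 21.3, 24.3 and 22.7 CPM, against 274, 276 and 277 CPM in H9M CTL libraries, 12.1-fold lower (log2 fold change -3.60 ± 0.053). Each KO library with ATRA still lay below each CTL library without ATRA of its model. ATRA over no ATRA came to 12.4-fold in MN1 KO cells and 2.70-fold in MN1 CTL cells, and to 22.1-fold in H9M KO cells and 2.41-fold in H9M CTL cells. The log2 effect of ATRA was larger in KO than in CTL cells by 2.20 ± 0.0974 in MN1 and by 3.20 ± 0.133 in H9M, again as a description. The H9M values are as counted, and once residual Kdm1a was removed, the log2 effect of ATRA was 3.23 in H9M KO cells, beside 1.27 in H9M CTL cells. That 3.23 rests on small remainders in overlapping libraries. The H9M KO libraries kept 13, 89 and 56 Tgm2 counts with ATRA and 2, 0 and 16 without it.

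The order of the Tgm2 group means from low to high was H9M KO, MN1 KO, H9M KO with ATRA, MN1 KO with ATRA, MN1 CTL, H9M CTL, MN1 CTL with ATRA and H9M CTL with ATRA. No neighbouring groups in that order overlapped. All 4 KO groups lay below all 4 CTL groups.

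The residual Kdm1a of the KO cells was set beside their Tgm2 level. In H9M KO cells with ATRA, Tgm2 stood at 8.26% of the H9M CTL level with ATRA, beside 7.51% for Kdm1a. In H9M KO cells without ATRA it stood at 0.875%, beside 0.693% for Kdm1a. In MN1 cells the shares were apart, with Tgm2 at 23.6% and Kdm1a at 1.09% with ATRA, and Tgm2 at 5.09% and Kdm1a at 0.748% without ATRA.

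Each KO library was also recomputed after the matching share of the CTL profile with the same ATRA treatment was taken off, as if the Kdm1a RNA came from unrecombined cells with CTL levels of every gene. Counts that fell below 0 were set to 0. H9M KO cells with ATRA then kept 2.04 ± 1.48 CPM of Tgm2 (SD, n = 3), with 0.577, 3.53 and 2.02 CPM in single libraries, from 13, 89 and 56 counts. H9M KO cells without ATRA kept 0.225 ± 0.316 CPM, with 0.0893, 0 and 0.586 CPM, from 2, 0 and 16 counts. The highest library without ATRA thus lay above the lowest one with ATRA, so in H9M KO cells the groups overlapped after the removal. When each library was instead given the share of its own Kdm1a level, a choice made after seeing the data, the H9M KO libraries with ATRA kept 0, 4.95 and 1.33 CPM. The H9M KO value with ATRA is a small remainder of 2 larger values, and its spread is close to its mean.

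In MN1 KO cells the removal was smaller. They kept 41.7 ± 3.19 CPM of Tgm2 with ATRA and 2.93 ± 0.281 CPM without ATRA (SD, n = 3), and these groups did not overlap. The log2 fold change of ATRA in MN1 KO cells was 3.80 after the removal, against 3.63 as counted, and that of KO over CTL without ATRA was -4.52, against -4.30 as counted, both moved by more than the spread between libraries. In H9M KO cells the log2 fold change of ATRA was 3.23 after the removal, against 4.47 as counted, and thus lay closer to the 1.27 of H9M CTL cells. The log2 fold change of KO over CTL in H9M cells was -6.93 with ATRA after the removal, against -3.60 as counted. Without ATRA it was -8.88, against -6.80 as counted. Whether the Kdm1a RNA of H9M KO cells with ATRA came from unrecombined cells was not tested.

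**Figure D2:**
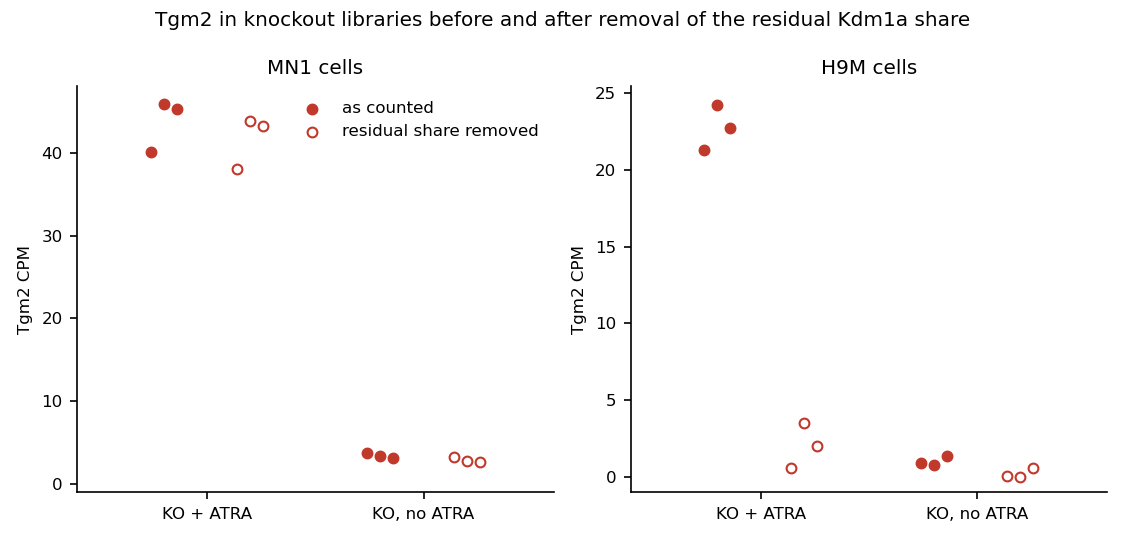
Tgm2 in CPM (linear axis) in each KO library as counted (filled) and after the residual Kdm1a share of the CTL profile was taken off (open), with MN1 cells left and H9M cells right. The H9M KO libraries with ATRA lay at 21.3 to 24.3 CPM as counted and at 0.577 to 3.53 CPM after removal, whereas MN1 KO libraries with ATRA averaged 41.7 CPM after it.

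F13a1 differed in direction between the models. In MN1 cells without ATRA it had 115, 116 and 111 CPM in KO libraries, against 205, 211 and 211 CPM in CTL libraries, 1.84-fold lower (log2 fold change -0.88 ± 0.0388). In H9M cells without ATRA it had 497, 499.9 and 506 CPM in KO libraries, against 155, 145 and 148 CPM in CTL libraries, 3.39-fold higher (log2 fold change 1.76 ± 0.0385). KO and CTL libraries did not overlap in either model. In H9M cells, Tgm2 and F13a1 therefore went opposite ways with the knockout, and in MN1 cells both were lower.

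With ATRA the F13a1 level was lower in each of the 4 pairs of groups. MN1 KO libraries had 83.7, 76.4 and 82.5 CPM with ATRA, 1.45-fold lower than MN1 KO libraries without it, and MN1 CTL libraries had 144, 158 and 144 CPM with ATRA, 1.43-fold lower than without it. The ATRA effect in MN1 cells hardly depended on the knockout (difference -0.02 ± 0.0554 on the log2 scale). H9M KO libraries had 118, 124 and 120 CPM with ATRA, 4.08-fold lower than without it, and H9M CTL libraries had 54.5, 51.3 and 53.7 CPM with ATRA, 2.73-fold lower than without it. In H9M cells the log2 effect of ATRA was more negative in KO than in CTL cells by -0.58 ± 0.0565. H9M KO cells with ATRA lay above H9M CTL cells with ATRA (log2 fold change 1.18 ± 0.0421), while MN1 KO cells with ATRA lay 1.87-fold below MN1 CTL cells with ATRA.

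From low to high, the F13a1 group means ran H9M CTL with ATRA, MN1 KO with ATRA, MN1 KO, H9M KO with ATRA, MN1 CTL with ATRA, H9M CTL, MN1 CTL and H9M KO. The libraries of MN1 CTL with ATRA and H9M CTL overlapped, and no other neighbours did. After the removal of the residual Kdm1a share, F13a1 in H9M KO cells with ATRA was 117 CPM against 121 CPM as counted, and the log2 fold change of KO over CTL with ATRA was 1.25 against 1.18.

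Tgm1 varied little and, as for F13a1, its knockout direction differed between the models. In MN1 cells without ATRA it had 15.1, 14.8 and 15.2 CPM in KO libraries, against 17.9, 17.3 and 16.3 CPM in CTL libraries (log2 fold change -0.20 ± 0.0712). In H9M cells without ATRA it had 15.2, 16.0 and 18.1 CPM in KO libraries, against 9.71, 9.65 and 9.85 CPM in CTL libraries, 1.71-fold higher (log2 fold change 0.77 ± 0.0773). The groups did not overlap in either model. With ATRA, MN1 KO libraries had 15.6, 16.2 and 17.4 CPM, against 22.7, 21.4 and 22.4 CPM in MN1 CTL libraries, 1.37-fold lower. H9M KO libraries with ATRA had 10.9, 11.3 and 12.9 CPM, against 7.56, 8.32 and 8.76 CPM in H9M CTL libraries, 1.44-fold higher. ATRA went with more Tgm1 in MN1 cells, 1.07-fold in KO and 1.27-fold in CTL, and with less in H9M cells, 1.38-fold lower in KO and 1.16-fold lower in CTL. The largest of these effects was under 2-fold, and MN1 KO with ATRA, H9M KO and MN1 CTL followed each other with overlapping libraries in the order of the means.

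Tgm3 varied in MN1 cells and lay near 5 CPM in all H9M groups. In MN1 cells without ATRA it had 23.3, 23.0 and 20.7 CPM in KO libraries, against 65.7, 70.5 and 66.7 CPM in CTL libraries, 3.04-fold lower. With ATRA it had 11.5, 12.9 and 11.4 CPM in MN1 KO libraries, against 45.5, 35.4 and 32.6 CPM in MN1 CTL libraries, 3.24-fold lower. The 4 MN1 groups did not overlap, and ATRA over no ATRA was 1.93-fold lower in KO and 1.81-fold lower in CTL cells. The knockout and ATRA therefore went the same way for Tgm3 in MN1 cells, with a log2 difference of the ATRA effect between KO and CTL of -0.09 ± 0.125. H9M libraries had 4.36 to 6.26 CPM over all 4 groups, and these groups overlapped.

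**Figure D3:**
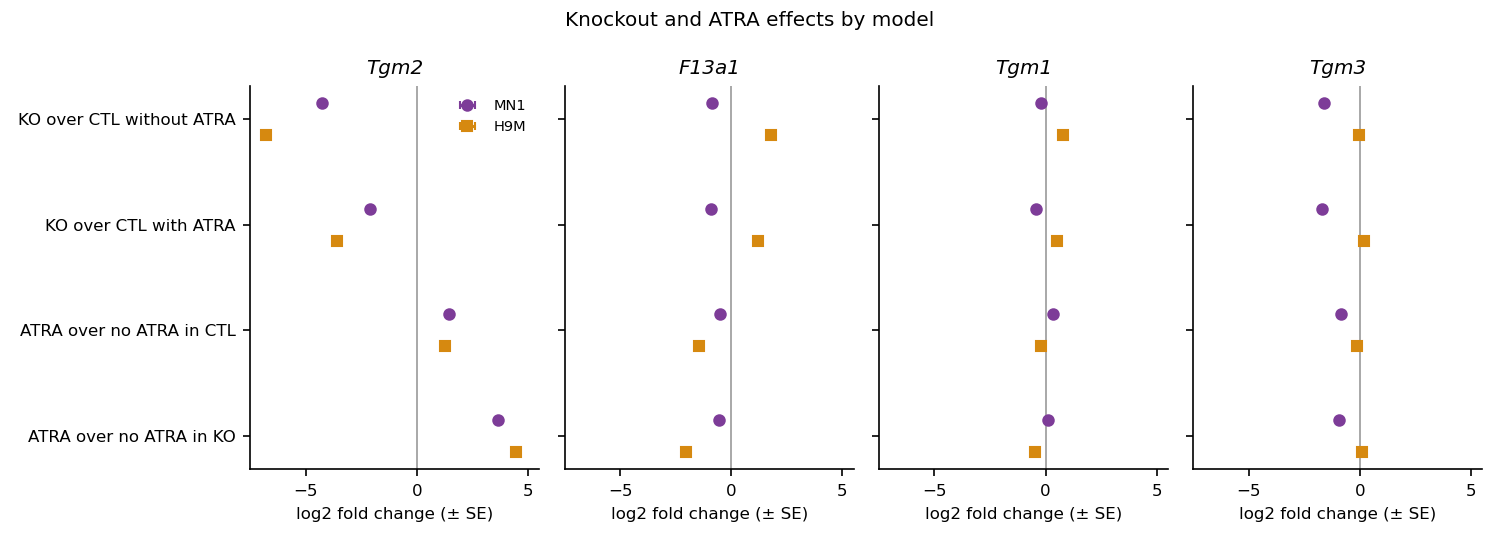
Log2 fold changes of the 4 genes for the knockout without and with ATRA and for ATRA in CTL and KO cells, with MN1 as purple circles above H9M as orange squares. Bars are ± SE, worked back from the F statistic of the fit over all genes, and are mostly narrower than the symbols. The knockout effect on Tgm2 was negative in both models, that on F13a1 and Tgm1 had opposite signs between them, and that on Tgm3 was near 0 in H9M.

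Counted over the 4 members, all 4 were lower in MN1 KO than in MN1 CTL cells without overlap, both without and with ATRA. Among all 14663 tested genes, 28.7% were called higher and 26.3% lower in MN1 KO over CTL without ATRA, and 28.6% higher and 28.6% lower with ATRA. Here and for the members below, the shares count genes called by the test, whereas the members are counted by libraries that do not overlap. The share of all genes without overlap was not counted, so the members and the shares rest on unlike measures. With ATRA over no ATRA in MN1 cells, Tgm2 and Tgm1 were higher and Tgm3 and F13a1 lower in both KO and CTL cells, without overlap. For Tgm1 in MN1 KO cells the log2 fold change was only 0.09 ± 0.0721. In MN1 KO cells 8.42% of genes were called higher and 10.4% lower with ATRA, and in MN1 CTL cells 11.4% higher and 10.4% lower. The split of the calls of ATRA in MN1 KO cells depended on the scaling, with 1234 genes higher and 1525 lower by TMM factors (44.7% higher) and 1403 higher and 1147 lower by RLE factors (55.0% higher). For MN1 KO over CTL with ATRA it was 4191 higher and 4198 lower by TMM factors, and 4540 higher and 3737 lower by RLE factors.

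In H9M cells, F13a1 and Tgm1 were higher and Tgm2 lower in KO than in CTL cells without overlap, both without and with ATRA, and Tgm3 overlapped. Among all tested genes, 26.1% were called higher and 25.4% lower in H9M KO over CTL without ATRA, and 26.7% higher and 24.4% lower with ATRA. With ATRA over no ATRA, Tgm2 was higher and F13a1 and Tgm1 lower in both H9M KO and H9M CTL cells, with Tgm3 again overlapping. These are levels as counted, and for Tgm2 the H9M KO libraries overlapped after the removal of residual Kdm1a. In H9M KO cells 13.9% of genes were called higher and 15.4% lower with ATRA, and in H9M CTL cells 12.9% higher and 12.3% lower. Which side was larger depended on the filter. In H9M KO cells 2044 were higher and 2261 lower, but 2131 and 1962 with a filter of 1 CPM. In H9M CTL cells 1887 were higher and 1808 lower, but 1663 and 1939 with no low-count filter. The knockout comparison without ATRA and the ATRA comparison in CTL cells share the untreated CTL libraries, so their values stand side by side and were not correlated.

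The models also differed in untreated CTL cells. These libraries are among those on which the members were chosen, so the values are a description, with no test. Here as above, fold changes come from the fit with TMM factors and CPM from library totals. The fold changes therefore differ somewhat from ratios of the CPM means. Tgm3 was 11.2-fold higher in MN1 than in H9M cells (log2 fold change 3.49 ± 0.101), at 67.6 ± 2.55 CPM in MN1 and 5.67 ± 0.496 CPM in H9M (SD, n = 3 each). Tgm1 was 1.66-fold higher in MN1 cells, at 17.2 ± 0.834 CPM in MN1 and 9.74 ± 0.102 CPM in H9M. F13a1 was 1.32-fold higher in MN1 cells, at 209 ± 3.49 CPM in MN1 and 149 ± 4.85 CPM in H9M. Tgm2 was 1.85-fold lower in MN1 cells, at 67.5 ± 2.00 CPM in MN1 and 117 ± 2.09 CPM in H9M. The members thus divided into 3 higher and 1 lower in MN1, all without overlap, and 37.6% of all genes were called higher and 35.9% lower. The library names of all MN1 libraries end in 1 tag and those of all H9M libraries in another, with no word in the labels on what it stands for, so the models and whatever the tag marks cannot be told apart.

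The rest of the family was close to silent. Tgm4, the prostate transglutaminase, had 0.04 to 0.35 CPM, and Tgm5, Tgm6 and Tgm7 had at most 0.04 CPM in any library. Epb42, the inactive family member of the red cell membrane, had no counts in H9M libraries and up to 0.23 CPM in MN1 CTL libraries with ATRA. None of the 5 passed the filter on low counts.

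H3K4me2 at the members was read from the GFI-KD and GFI1-WT libraries, with 9538627 and 8949072 reads kept. With 1 library per genotype there is no test, and the 95% intervals cover counting error only. Signal was counted 1 kb either side of each start and scaled per kb and to the depth of its library (reads per 1000000 kept reads, RPM, per kb). At F13a1 start 1 the GFI-KD library had 8.34 (7.09 to 9.74) RPM per kb, against 3.35 (2.56 to 4.32) in GFI1-WT, a ratio of 2.49 (1.84 to 3.40). At F13a1 start 2 the GFI-KD library had 271 reads and GFI1-WT had 77, a ratio of 3.30 (2.56 to 4.31). Over the whole F13a1 gene the ratio was 2.62 (2.34 to 2.94), from 1148 reads in GFI-KD and 411 in GFI1-WT. The busiest 1-kb bin at F13a1, chromosome 13 from 37049178 to 37050177, held 139 GFI-KD reads and 49 GFI1-WT reads and lies almost wholly between the 2 starts whose windows are printed above.

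Tgm1 also had more H3K4me2 in GFI-KD. At its first start the GFI-KD library had 214 reads and GFI1-WT had 86, a ratio of 2.34 (1.81 to 3.03), and at its second start the ratio was 2.43 (1.87 to 3.18). The windows of the 2 starts of each gene overlap, so they are not independent. Tgm2 went the other way, and since its strand is not in the tables used, both gene ends were counted. At the upper end, position 158146392, GFI-KD had 57 reads and GFI1-WT had 99, a ratio of 0.540 (0.383 to 0.756). At the lower end, position 158116405, the ratio was 0.552 (0.339 to 0.883), and over the whole gene it was 0.566 (0.485 to 0.661). The busiest bin at Tgm2, chromosome 2 from 158153405 to 158154404, lies beyond the upper end and held 89 GFI-KD and 135 GFI1-WT reads. Tgm3 had 0 GFI-KD and 2 GFI1-WT reads at its annotated start, position 130012340 on the plus strand, too few for a ratio. That start lies within the Tgm3 span given above, and the lower end of the span was not counted on its own. Over the whole Tgm3 gene the ratio was 1.19 (0.952 to 1.49).

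Among 18360 starts with at least 20 reads over both libraries, 13.5% were past 1.5-fold higher and 7.24% past 1.5-fold lower in GFI-KD, and the median ratio over those 18360 starts was 0.988. Both starts of F13a1 and of Tgm1 were past that fold upward, and both ends of Tgm2 were past it downward. Tgm2 has no entry among the annotated starts, so its gene ends are not like the starts behind these shares. These cells are bone marrow cells without a transforming gene, the altered factor is GFI1 and not LSD1, and an input library was not used here.

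**Figure D4:**
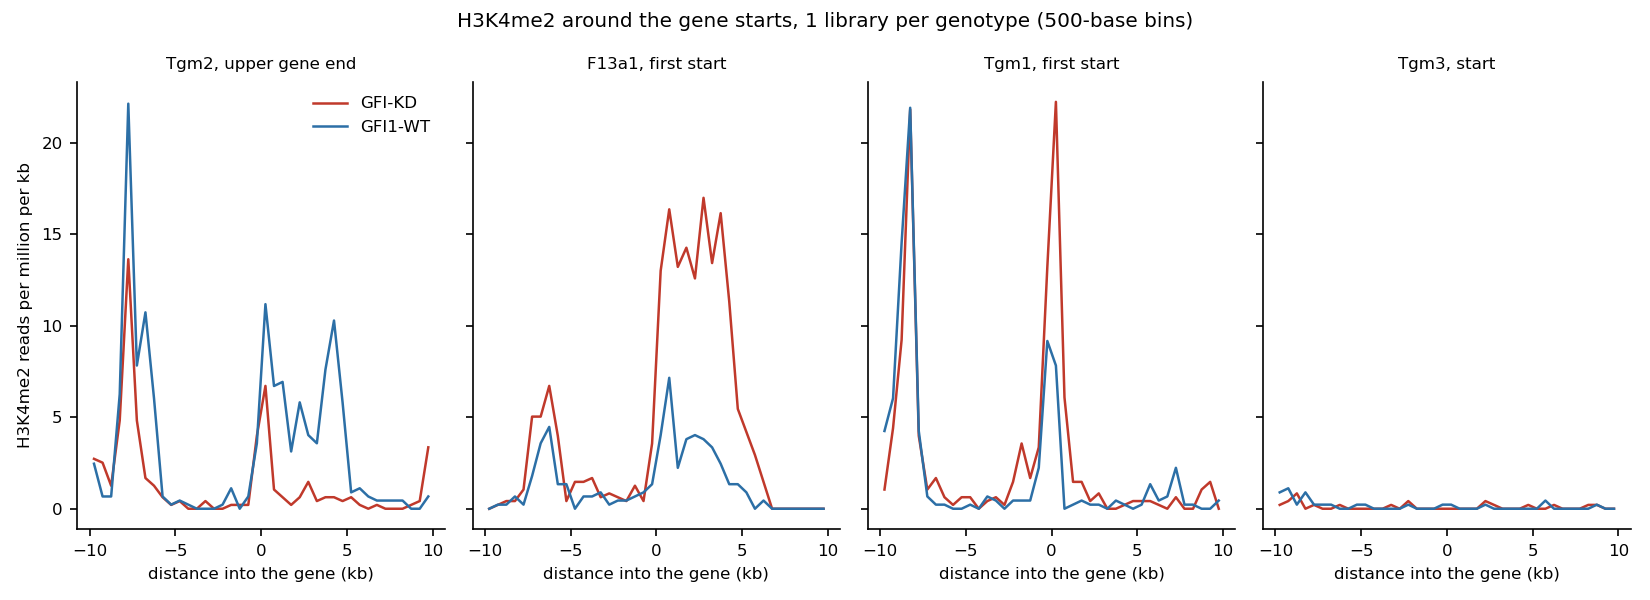
H3K4me2 reads (RPM per kb) in 500-base bins against distance into the gene in kb, for the upper end of Tgm2 and the annotated starts of F13a1, Tgm1 and Tgm3, with GFI-KD in red and GFI1-WT in blue, 1 library each. GFI-KD lay above GFI1-WT across the first part of F13a1 (ratio at start 1 of 2.49) and at the start of Tgm1, and below it at Tgm2 (ratio 0.540), and Tgm3 had almost no reads at its annotated start. That start lies within the Tgm3 gene, so distance there is from the start and not from the gene end.

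Genes that work with Tgm2 outside the cell, a list of 17 with 15 tested, were mostly higher in KO cells, by edgeR's quasi-likelihood test with Benjamini-Hochberg adjustment over all genes. The median log2 fold change over all tested genes lay between -0.02 and 0.01 in each of the 9 comparisons. Of all tested genes, 28.7% were called higher and 26.3% lower in MN1 KO over CTL without ATRA and 26.1% higher and 25.4% lower in H9M, and the knockout counts of this and the next lists stand beside those shares. In MN1 KO over CTL cells without ATRA, 9 of the 15 rose and 3 fell (median 0.38), and in H9M KO over CTL cells 11 rose and 2 fell (median 0.63). Mfge8, which bridges dying cells to integrins for uptake, rose in MN1 KO cells to 97.2 ± 1.62 CPM, against 43.6 ± 2.47 CPM in MN1 CTL cells (edgeR adjusted p = 3.67e-19), and in H9M KO cells to 88.8 ± 2.46 CPM, against 29.8 ± 0.504 CPM in H9M CTL cells (edgeR adjusted p = 3.66e-22). Fn1, the fibronectin to which Tgm2 binds, rose to 11.9 ± 1.19 CPM in MN1 KO cells, against 0.909 ± 0.304 CPM in MN1 CTL cells, and to 9.53 ± 1.81 CPM in H9M KO cells, against 0.19 ± 0.206 CPM in H9M CTL cells. Thbs1, the matrix protein thrombospondin 1, fell in both models, to 19.0 ± 2.41 CPM in MN1 KO cells, against 60.6 ± 5.16 CPM in MN1 CTL cells, a log2 fold change of -1.68 ± 0.0969, and in H9M cells by a log2 fold change of -3.78 ± 0.0832. Ltbp1, which holds latent TGF-beta in the matrix, fell to 8.56 ± 0.775 CPM in MN1 KO cells, against 23.2 ± 0.484 CPM in MN1 CTL cells.

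With ATRA these partners went both ways in MN1 cells. In KO cells 5 of the 15 rose and 5 fell, with a median of -0.07, beside 8.42% and 10.4% of all genes. In CTL cells 4 rose and 5 fell, with a median of 0.02, beside 11.4% and 10.4% of all genes. Adgrg1, the adhesion receptor GPR56 that binds Tgm2, fell with ATRA to 1173 ± 53.6 CPM in MN1 KO cells, against 1471 ± 22.9 CPM without ATRA, and to 1043 ± 10.5 CPM in MN1 CTL cells, against 1463 ± 27.4 CPM without ATRA. In H9M cells Adgrg1 rose with ATRA, with a log2 fold change of 0.17 ± 0.0386 in KO and 0.32 ± 0.0376 in CTL cells. In H9M CTL cells 10 of the 15 rose and 2 fell with ATRA, with a median of 0.25, beside 12.9% and 12.3% of all genes, among them the syndecan Sdc4 with a log2 fold change of 2.54 ± 0.323 at a level of 2.01 ± 0.203 CPM with ATRA. Among H9M KO cells 7 rose and 5 fell, with a median of 0.13, beside 13.9% and 15.4% of all genes. In KO over CTL cells with ATRA, 10 rose and 3 fell in MN1 (median 0.33, beside 28.6% and 28.6% of all genes) and 8 rose and 3 fell in H9M (median 0.14, beside 26.7% and 24.4%).

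Of 12 intracellular partners of Tgm2, 7 were tested. In KO over CTL cells without ATRA, 5 rose and 1 fell in MN1 (median 0.37) and 6 rose and 0 fell in H9M (median 0.27). Bax, a cell death protein, rose to 112 ± 0.966 CPM in MN1 KO cells, against 73.7 ± 1.69 CPM in MN1 CTL cells. Nfkbia, the inhibitor of NF-kB that Tgm2 can crosslink, rose to 43.7 ± 2.82 CPM in H9M KO cells, against 24.5 ± 1.02 CPM in H9M CTL cells. With ATRA, 1 of the 7 rose and 3 fell in MN1 KO cells (8.42% and 10.4% of all genes), and 0 rose and 2 fell in MN1 CTL cells (11.4% and 10.4%). In H9M KO cells 1 rose and 4 fell (13.9% and 15.4% of all genes), and in H9M CTL cells 0 rose and 1 fell (12.9% and 12.3%). Pdia3, a disulfide isomerase of the endoplasmic reticulum, fell with ATRA in all 4.

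Of 25 genes of coagulation and fibrinolysis, the setting of F13a1, 15 were tested. In KO over CTL cells without ATRA, 11 rose and 2 fell in MN1 (median 1.12) and 9 rose and 2 fell in H9M (median 0.53). Plaur, the receptor that holds urokinase at the cell surface, rose to 98.3 ± 3.41 CPM in MN1 KO cells, against 45.0 ± 1.69 CPM in MN1 CTL cells (edgeR adjusted p = 9.96e-19), and to 195 ± 4.84 CPM in H9M KO cells, against 50.5 ± 3.50 CPM in H9M CTL cells (edgeR adjusted p = 3.53e-25). Plau, urokinase itself, rose to 5.26 ± 0.845 CPM in MN1 KO cells, against 1.82 ± 0.188 CPM in MN1 CTL cells, and to 18.2 ± 0.482 CPM in H9M KO cells, against 4.59 ± 0.237 CPM in H9M CTL cells. Procr, the endothelial protein C receptor, rose to 176 ± 3.55 CPM in MN1 KO cells, against 35.7 ± 2.24 CPM in MN1 CTL cells. Thus in MN1 KO cells F13a1 was lower while most tested genes of its list rose, and in H9M KO cells both were higher.

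With ATRA, 2 of the 15 coagulation genes rose and 1 fell in MN1 KO cells, beside 8.42% of all genes called higher and 10.4% lower, and 1 rose and 3 fell in MN1 CTL cells, beside 11.4% and 10.4%. For H9M, 4 rose and 2 fell in KO cells, beside 13.9% and 15.4% of all genes, and 4 rose and 2 fell in CTL cells, beside 12.9% and 12.3%. Plaur fell with ATRA in H9M cells, to 139.7 ± 2.65 CPM in KO cells, against 195 ± 4.84 CPM without ATRA.

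Of 16 cornified envelope genes, which code for substrates of Tgm1 and Tgm3 in the skin, 4 were tested. Ivl, involucrin, rose to 5.16 ± 0.896 CPM in MN1 KO cells, against 2.31 ± 0.420 CPM in MN1 CTL cells, and with ATRA to 24.7 ± 1.68 CPM in H9M CTL cells, against 9.78 ± 2.60 CPM without ATRA (edgeR adjusted p = 1.84e-10). In H9M KO cells with ATRA Ivl fell to 19.8 ± 2.41 CPM, against 24.7 ± 1.68 CPM in H9M CTL cells with ATRA (edgeR adjusted p = 0.0139). Sprr1a, a small proline-rich protein, rose with ATRA to 1.30 ± 0.201 CPM in MN1 CTL cells, against 0.485 ± 0.112 CPM without ATRA. Besides Ivl and Sprr1a, the only call among them in the 9 comparisons was Evpl, envoplakin, which was lower in H9M KO than in H9M CTL cells with ATRA, both under 1 CPM.

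Genes of the retinoic acid response gave a measure of the ATRA treatment beside Tgm2, with 12 of 15 tested. With ATRA, 7 rose and 0 fell in MN1 KO cells (median 1.41), 9 rose and 0 fell in MN1 CTL cells (median 0.89), 7 rose and 1 fell in H9M KO cells (median 1.41) and 9 rose and 1 fell in H9M CTL cells (median 1.62). The shares of all genes called higher with ATRA were 8.42% and 11.4% in MN1 KO and CTL cells and 13.9% and 12.9% in H9M KO and CTL cells. Dhrs3, which turns retinal back to retinol, rose with ATRA to 119 ± 2.83 CPM in MN1 KO cells, against 39.3 ± 1.34 CPM without ATRA, and to 217 ± 2.11 CPM in H9M KO cells, against 54.1 ± 0.645 CPM without ATRA. In KO over CTL cells without ATRA, 7 of the 12 rose and 0 fell in MN1 (median 0.58) and 6 rose and 0 fell in H9M (median 1.17). Cd38, an ectoenzyme and retinoic acid target, rose to 27.0 ± 1.46 CPM in H9M KO cells, against 0.576 ± 0.0546 CPM in H9M CTL cells. Without ATRA, Tgm2 was lower in KO cells while none of these genes was called lower.

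Markers of other cell types moved with the groups. Over the 12 classical monocyte markers, the summed level was 1326 to 1433 CPM in MN1 KO with ATRA, 1398 to 1421 CPM in MN1 KO, 378 to 437 CPM in MN1 CTL with ATRA and 578 to 593 CPM in MN1 CTL libraries. In H9M it was 3865 to 3952 CPM in KO with ATRA, 4923 to 5031 CPM in KO, 778 to 818 CPM in CTL with ATRA and 1357 to 1383 CPM in CTL libraries. All 12 rose in KO over CTL cells without ATRA in both models, with a median of 2.07 in MN1 and 3.47 in H9M. F13a1, which monocytes are known to make, was higher in KO cells in H9M and lower in MN1 while these markers rose in both. The megakaryocyte and platelet list summed to 110 to 159 CPM in MN1 libraries and to 3.01 to 19.2 CPM in H9M libraries. With ATRA, most of the MN1 sum was 1 gene, Itga2b, named after its values were seen, at 134 CPM in KO and 111 CPM in CTL cells. In H9M cells with ATRA Itga2b had 0.0784 CPM in KO and 0.126 CPM in CTL. Of the 9 tested genes of the list, 7 were called higher and 1 lower in MN1 than in H9M untreated CTL cells, beside 37.6% and 35.9% of all genes. The alternatively activated macrophage list summed to 507 to 556 CPM in MN1 KO against 39.7 to 42.2 CPM in MN1 CTL libraries, and to at most 29.1 CPM in H9M KO against 4.59 to 4.79 CPM in H9M CTL libraries. In MN1 this sum was mostly 1 gene, the scavenger receptor Stab1, named after its values were seen, with 480 ± 25.1 CPM in KO and 1.08 ± 0.210 CPM in CTL libraries. Of the 6 tested genes of the list, 3 rose and 0 fell in MN1 KO over CTL cells and 6 rose in H9M. The part of these cell types in the member levels was not tested.

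Over the 8 group means on the log2 scale, Tgm2 and F13a1 had a Pearson r of -0.614, Tgm1 and Tgm3 of 0.662, and Tgm1 and F13a1 of 0.492. Groups share a model or a treatment, so these values are descriptions, with no p. Among 10173 genes compared, Tgm2 was most like Rai1 (r = 0.965), Atp6v0a2 (0.958), Tfdp2 (0.954), Fam13b (0.954) and Rasa3 (0.949). F13a1 was most like Pigv (0.943), H3f3b (0.935), Pde4dip (0.926), Kbtbd8 (0.920) and Zfp952 (0.898). Each of them spans far less than the member it resembles, as Rai1 runs over 61.9 to 151 CPM and Pigv over 7.61 to 10.5 CPM.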

How the data were processed

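RNA from 24 libraries and H3K4me2 ChIP from 2 libraries were used. Per the labels' protocols, RNA libraries were stranded total RNA read as 100-base pairs, and per the submitters' processing notes STAR 2.5.3 was the aligner and mm10 the build. The authors deposited whole-number counts per gene and library. How reads were counted (tool, gene models, strand) is not given in the sources used. Of the Ensembl IDs, 48349 matched a symbol and 446 did not, and 21762 genes had no count.

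Counts were scaled by TMM and filtered by filterByExpr, and 14663 genes were fitted in edgeR 4.0.16 (R 4.3.3) as 8 groups with glmQLFit and glmQLFTest (16 residual degrees of freedom and a common BCV, the biological coefficient of variation, of 4.01%). The 9 comparisons used two-sided tests, with calls at a Benjamini-Hochberg adjusted p under 0.05 over all genes. CPM are counts over the library total, with the sample SD. DESeq2 1.42.0 was an alternative. No pair of libraries agreed within sampling noise.

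The deposited ChIP reads carry a score, the mapping quality, which was used only to keep reads of at least 10. Reads with the same chromosome, first base and strand were then counted once. The submitters' processing notes name GRCm38 and, as tools, bedtools 2.27.0, CASAVA 1.8.2 and BWA without its version. Intervals are exact 95% intervals. Promoter sequences and starts come from RefSeq, GRCm38.p6, which held entries for F13a1, Tgm1 and Tgm3.

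The members and gene lists were chosen with earlier results of these data known. The lists were written from textbook knowledge. Named list genes are up to 4 called genes a list and comparison with the smallest adjusted p, and not all are printed. The genes most like Tgm2 and F13a1 are the 5 with the highest Pearson r among tested genes reaching a mean of 5 CPM, without clone names.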

Additional observations from a re-analysis of the deposited data

Results flagged for a closer look

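F13a1 and Tgm1 went opposite ways with the knockout in the 2 models, with no overlap between KO and CTL libraries. The difference between the models was not tested, since the knockout effects chose the genes. For F13a1 the log2 fold change of KO over CTL without ATRA was -0.88 in MN1 and 1.76 in H9M, and with ATRA it was -0.90 in MN1 and 1.18 in H9M. For Tgm1 it was -0.20 in MN1 and 0.77 in H9M without ATRA, and -0.45 in MN1 and 0.52 in H9M with ATRA.

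The ATRA effect on Tgm1 also had opposite signs in MN1 and H9M cells, with no overlap between libraries with and without ATRA. This difference was not tested either. In CTL cells the log2 fold change of ATRA over no ATRA was 0.34 in MN1 and -0.21 in H9M, and in KO cells it was 0.09 ± 0.0721 (SE) in MN1 and -0.46 in H9M. The values for Tgm1 are small.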

How the results depend on the processing

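The number of genes called in each of the 9 comparisons stayed within 1.5 times its value in all 120 alternatives run, which covered RLE factors, other filters, DESeq2, fits of the groups concerned alone, the replicate block, removal of residual Kdm1a and each library left out in turn. Scaling by library totals alone was also run, but only for the member values, and genes called under it were not counted. Of 516 alternative values of the 4 members, which include that scaling, 15 were marked as moved by more than the spread between replicates and none with separate groups reversed. The rule by spread was not applied to MN1 over H9M in untreated CTL cells, where a shift in size could not be marked. There, apart from leaving out libraries, the log2 fold change ran from 0.386 to 0.488 for F13a1 (against 0.400) and from -0.891 to -0.799 for Tgm2 (against -0.887). It ran from 0.726 to 0.825 for Tgm1 (against 0.729) and from 3.485 to 3.576 for Tgm3 (against 3.488). All but 1 of the 15 came from removing the residual Kdm1a share, and the other was Tgm2 with ATRA in H9M CTL cells, 1.23 against 1.27 on the log2 scale. Tgm3 in H9M KO over CTL cells ran from -0.12 to 0.02 with 1 library left out. Leaving out 1 library gave 7527 to 7620 calls for MN1 KO over CTL without ATRA and 2018 to 2411 for ATRA in MN1 KO cells. Replicate numbers did not pair the samples, as same-numbered libraries correlated by -0.0332 to 0.0773 in MN1 and by -0.0749 to 0.0696 in H9M; with the replicate block, MN1 KO over CTL without ATRA gave 8079 calls against 8071, and H9M KO over CTL without ATRA 7554 against 7557. Starts past 1.5-fold in H3K4me2 numbered 3786 to 4600 in the alternatives, against 3815. Windows of 2 kb either side lowered the H3K4me2 level at Tgm1 start 1 to 6.63 RPM per kb in GFI-KD and 2.60 in GFI1-WT, and at the upper end of Tgm2 to 1.65 in GFI-KD and 4.16 in GFI1-WT, with the same direction. Depth limits Tgm2 in H9M KO cells without ATRA, where it rests on 20 to 38 counts a library.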
